A study of Homo sapiens with 6 samples.

Results

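The miR-106a/miR-363 cluster is a group of microRNA (miRNA) genes that lie side by side on the X chromosome, and its mature products were measured here in exosomes, the small vesicles that cells release into their medium. Members were chosen by name among the human entries of the array, as both arms of miR-106a, miR-18b, miR-20b and miR-363. Of these 8 mature miRNAs, 7 were among the 2549 human miRNAs analysed: hsa-miR-106a-3p, hsa-miR-18b-5p, hsa-miR-18b-3p, hsa-miR-20b-5p, hsa-miR-20b-3p, hsa-miR-363-3p and hsa-miR-363-5p. The prefix is left out below, and miR-106a-5p was not analysed here.

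The exosomes were precipitated with ExoQuick-TC from culture medium of H9, an established and widely used human ES line, grown for all groups on Matrigel in TeSR-E8. Substate 1 is defined by colonies with strong staining of the R-10G epitope, a marker of pluripotency, and no vimentin, a mesenchymal marker, and substate 2 by weaker R-10G staining together with vimentin. There were 3 experiments, each with 1 array of substate 1 and 1 array of substate 2, labelled with Cy3 from 72.4 ng (experiment 1), 100 ng (experiment 2) or 51.4 ng (experiment 3) of miRNA. Substate 2 always came from later passages, namely 52 beside 41 for substate 1 in the first experiment, 61 beside 46 in the second and 65 beside 50 in the third. Substate and passage therefore cannot be told apart, and all arrays come from 1 cell line. How pure each culture was when its medium was taken is not given in the sources used here. Both arrays of experiment 1 were on slide 1, and the 4 arrays of experiments 2 and 3 on slide 2. Between 310 and 594 miRNAs were detected per array, between 8.39% and 16.9% of the spots lay well above background, and 0 spots were saturated.

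A miRNA is a short RNA that guides the silencing machinery to messenger RNAs, which it recognises mainly through a short stretch near its 5′ end called the seed. The cluster is an X-linked copy of the miR-17/92a-1 cluster, and the related miR-106b/25 cluster carries members with the same seeds, so that related miRNAs are thought to share many targets. These families are known for expression in pluripotent stem cells and for repressing cell cycle inhibitors such as CDKN1A and pro-apoptotic genes such as BCL2L11.

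The mature sequences of 7 of the 8 listed members were found in the RefSeq miRNA table (GRCh38.p14), and miR-106a-3p is given by name alone. They are printed 5′ to 3′ because miR-106a-5p, miR-18b-5p and miR-20b-5p differ from their counterparts in the miR-17/92a-1 cluster by 1 or 2 bases only. The seed, bases 2 to 8, is in capitals. The members with seed AAAGUGC are followed by their counterparts from the miR-17/92a-1 cluster.
miR-106a-5p: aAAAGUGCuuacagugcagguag
miR-20b-5p: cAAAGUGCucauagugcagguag
miR-17-5p: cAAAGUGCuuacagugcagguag
miR-20a-5p: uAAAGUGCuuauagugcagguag
The next seed, AAGGUGC, is that of miR-18b-5p and of its counterpart.
miR-18b-5p: uAAGGUGCaucuagugcaguuag
miR-18a-5p: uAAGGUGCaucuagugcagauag
The seed AUUGCAC is shared by miR-363-3p with miR-92a-3p and with miR-25-3p of the miR-106b/25 cluster.
miR-363-3p: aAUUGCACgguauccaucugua
miR-92a-3p: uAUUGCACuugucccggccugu
miR-25-3p: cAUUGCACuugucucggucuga
The opposite arms of 3 of the hairpins each have a seed of their own within the cluster.
miR-18b-3p: uGCCCUAAaugccccuucuggc
miR-20b-3p: aCUGUAGUaugggcacuuccag
miR-363-5p: cGGGUGGAucacgaugcaauuu

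Positions below are counted from 1 at the 5′ end, with the base of the counterpart first. Relative to miR-17-5p, miR-106a-5p differs at 1 of 23 positions (C1A). Relative to miR-18a-5p, miR-18b-5p also differs at 1 of 23 positions (A20U). Relative to miR-20a-5p, miR-20b-5p differs at 2 of 23 positions (U1C and U10C), which leaves 91.3% identical. By contrast miR-363-3p has only 10 of 22 bases in common with miR-92a-3p and 9 of 22 with miR-25-3p when aligned from the 5′ end without gaps. How far a probe for one of the near-identical miRNAs also binds its counterpart was not tested.

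In the RefSeq table the mature arms with an entry lie on the minus strand at chrX:134169382-134170266 (GRCh38.p14), a stretch of 885 bases inside the long non-coding RNA gene MIR106AHG. It holds 6 miRNA genes in the order MIR106A, MIR18B, MIR20B, MIR19B2, MIR92A2 and MIR363. The products of MIR19B2 and MIR92A2 were kept apart from the listed members, because mature miR-19b-3p and miR-92a-3p are also made from the miR-17/92a-1 cluster on chromosome 13 with an identical sequence. Signal of these miRNAs could therefore not be assigned to the X chromosome. Their other arms, miR-19b-2-5p and miR-92a-2-5p, differ from those made on chromosome 13, and both were undetected on all 6 arrays.

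**Figure D1:**
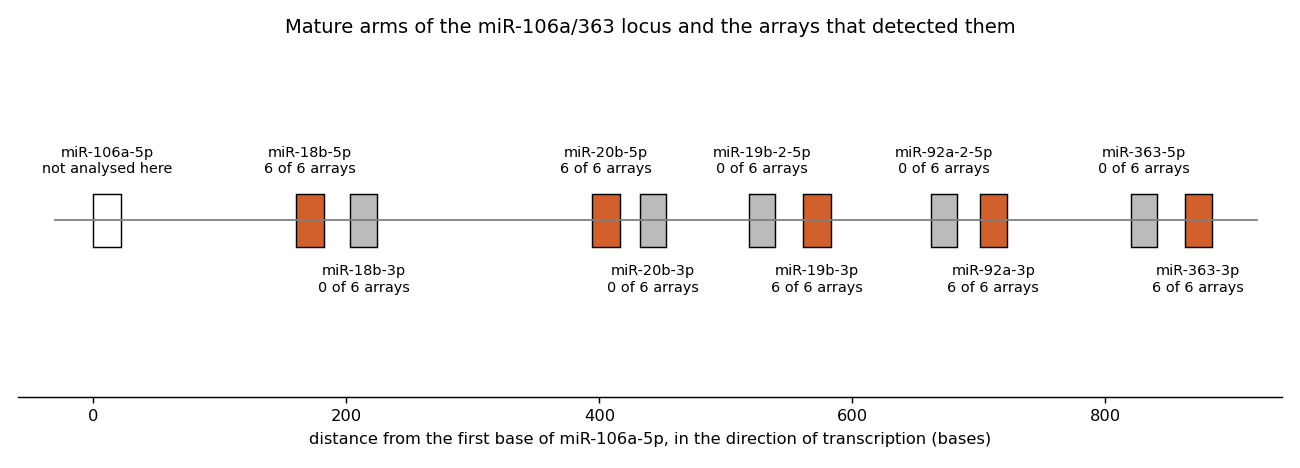
Mature arms of the miR-106a/miR-363 locus by distance in bases from the first base of miR-106a-5p, with the number of arrays that detected each. Orange arms were detected on 6 of 6 arrays and grey arms on 0, miR-106a-5p (white) was not analysed here, and miR-106a-3p is not drawn because its position was not used here.

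For the hairpins of miR-18b, miR-20b and miR-363 a single arm was detected. Of the 7 members analysed, miR-20b-5p, miR-18b-5p, miR-363-3p and miR-106a-3p were detected on all 6 arrays, and miR-18b-3p, miR-20b-3p and miR-363-5p on 0 of 6. A miRNA counts as detected when at least 1 of its probes has a signal over 3 times its error. For miR-18b-3p the highest probe signal reached 2.37 times its error, for miR-363-5p 1.56 times, and for miR-20b-3p 0.449 times. These 3 arms had 4 probes each, so a level under the detection limit is all that can be given for them. The 4 detected members were the ones that could be tested between substates, and the filter (detection on at least 3 of 6 arrays) left out the other 3 in both substates alike.

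Total signals are given in intensity units, as the sum, after background subtraction, over those probes of a miRNA that exceed 3 times their error. To make arrays comparable each total signal was also divided by the 99th percentile of all human miRNAs on its array. In this unit, log2 values were taken after raising signals under a common floor of 0.431% to the floor, taken from the array whose lowest detected signal was the highest.

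miR-20b-5p carries the seed of miR-17-5p. Its total signal was 590.7 in substate 1 and 459.8 in substate 2 of experiment 1, 392 and 793 in experiment 2, and 256 and 254 in experiment 3. As a percentage of the 99th percentile these signals were 124% and 171%, 110.5% and 281%, and 142.2% and 203%. On this scale, though not in signals as scanned, substate 2 was the higher array of every pair, and the groups did not overlap. The mean log2 signal was 0.32 ± 0.18 in substate 1 and 1.096 ± 0.364 in substate 2 (SD, n = 3 arrays each). The log2 difference, substate 2 minus substate 1, was 0.46, 1.35 and 0.51 in the 3 experiments, with a mean of 0.77 ± 0.50 (SD, n = 3 experiments), or 1.71-fold.

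miR-363-3p, the last miRNA of the cluster and a relative of miR-92a-3p, had a total signal of 211 in substate 1 and 197 in substate 2 of experiment 1. It had 168 and 346 in experiment 2, and 90.6 and 105.99 in experiment 3. Relative to the 99th percentile these were 44.4% and 73.3%, 47.2% and 122.9%, and 50.4% and 84.8%. Its 3 values in substate 1 lay close together and all below the 3 values in substate 2. The mean log2 signal was −1.08 ± 0.09 in substate 1 and −0.13 ± 0.38 in substate 2. The log2 difference was 0.72, 1.38 and 0.75 in the 3 experiments, with a mean of 0.95 ± 0.37, or 1.93-fold.

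miR-18b-5p had a total signal of 78.2 in substate 1 and 50.1 in substate 2 of experiment 1, 45.8 and 122.5 in experiment 2, and 34.0 and 38.6 in experiment 3. Relative to the 99th percentile it was at 16.4% and 18.6%, 12.9% and 43.5%, and 18.9% and 30.9%. Here the groups overlapped, because substate 2 of experiment 1 lay below substate 1 of experiment 3. The mean log2 signal was −2.65 ± 0.28 in substate 1 and −1.77 ± 0.62 in substate 2. The log2 difference was 0.18, 1.75 and 0.71, with a mean of 0.88 ± 0.80, so that its spread between experiments was nearly as large as the mean.

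miR-106a-3p, the 3′ arm of the first hairpin of the cluster, was close to the detection limit throughout. Its total signal was 1.12 and 1.66 in experiment 1, 1.04 and 3.30 in experiment 2, and 0.780 and 0.757 in experiment 3, substate 1 first. Relative to the 99th percentile it was at 0.236% and 0.617%, 0.292% and 1.17%, and 0.433% and 0.605%. In substate 1 the values of experiments 1 and 2 lay under the floor and that of experiment 3 just above it. With the floor, the log2 difference was 0.52, 1.44 and 0.48, with a mean of 0.81 ± 0.54. Without it the scaled ratio was 1.39, 2.00 and 0.48 on the log2 scale, so the floor lowers the differences of experiments 1 and 2.

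**Figure D2:**
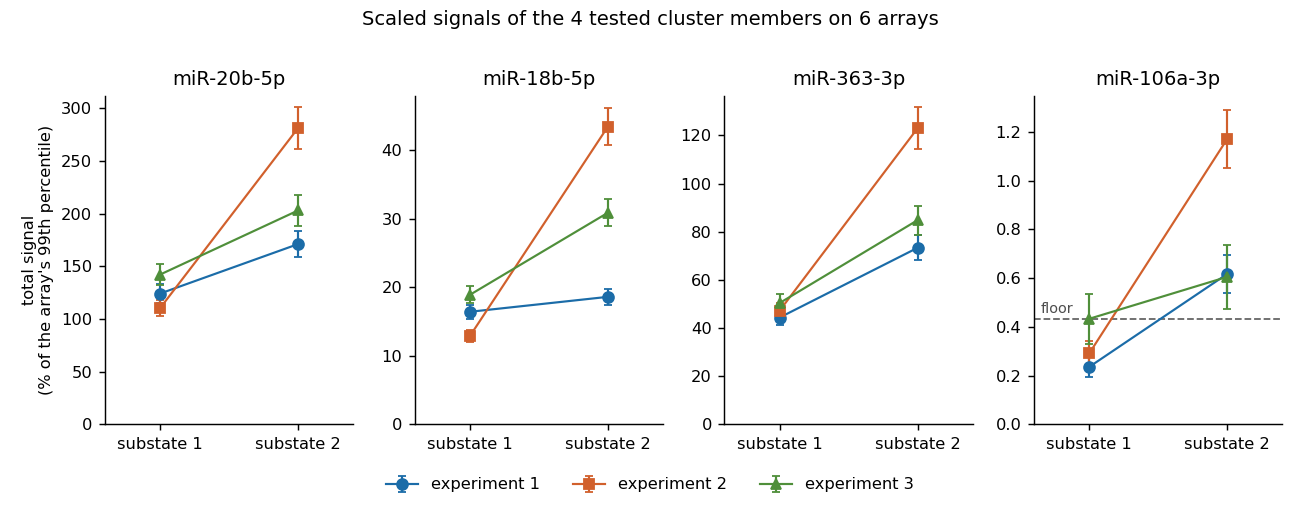
Total signal of the 4 tested members in percent of the array's 99th percentile, by substate, with a line for each experiment, the software's error of each signal as bars, and a separate linear axis from 0 for each miRNA. Every line runs upward from substate 1 to substate 2, though not before scaling in experiments 1 and 3, and for miR-106a-3p 2 arrays lie under the floor of 0.431% (dashed).

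The direction in single experiments depended on the scaling. Before scaling, miR-20b-5p had a log2 ratio of substate 2 over substate 1 of −0.36 in experiment 1, 1.02 in experiment 2 and −0.01 in experiment 3. For miR-363-3p the unscaled ratios were −0.10, 1.05 and 0.23, and for miR-18b-5p they were −0.64, 1.42 and 0.18. For miR-106a-3p they were 0.56, 1.67 and −0.04. The 99th percentile itself was lower in substate 2 in each experiment, with a log2 ratio of −0.82, −0.33 and −0.52. The median unscaled ratio of all 289 miRNAs detected on all 6 arrays was −0.91, −0.35 and −0.45. In experiments 1 and 3 the members thus had ratios above those of the array as a whole, whereas a higher unscaled signal in substate 2 of all 4 members was seen in experiment 2 alone. The amount labelled was equal for both substates of an experiment. With signals divided by that amount in place of the percentile, the mean log2 differences were 0.21 for miR-20b-5p, 0.39 for miR-363-3p, 0.32 for miR-18b-5p and 0.70 for miR-106a-3p. The median of all tested miRNAs moved to −0.51 under this scaling, and relative to it the members were at 0.73, 0.90, 0.83 and 1.21.

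**Figure D3:**
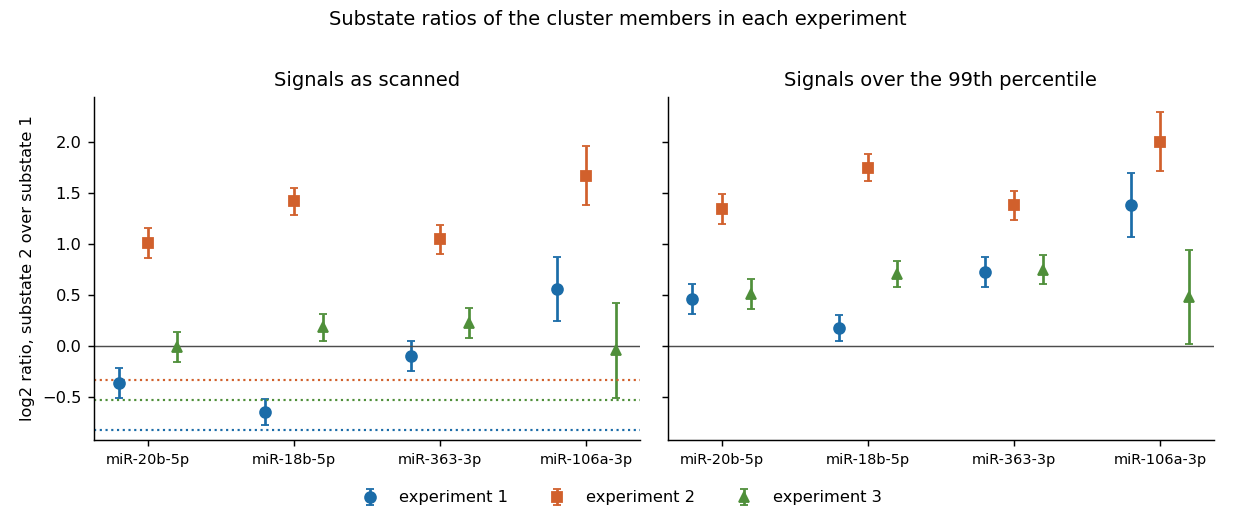
Log2 ratio of substate 2 over substate 1 for the 4 members in each experiment, before scaling (left) and after division by the 99th percentile, without the floor (right). Bars are the error propagated from the software's signal errors, and dotted lines are the ratio of the 99th percentile in each experiment (−0.82, −0.33 and −0.52), and no member lies below the line of its own experiment.

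Within an array, the software's error of a total signal was 6.28% to 7.24% of the signal for the 3 brighter members and 10.3% to 23.8% for miR-106a-3p. Carried through to the scaled log2 ratio, the error for miR-20b-5p was 0.15 in each experiment, and its differences were 3.15, 9.18 and 3.49 times as large. The differences of miR-363-3p were 4.98, 9.48 and 5.13 times their error. For miR-18b-5p the difference of experiment 1 was only 1.39 times its error, against 13.5 times in experiment 2, and for miR-106a-3p without the floor the ratios were 4.39, 6.91 and 1.04. This error covers the measurement within an array only, and in experiment 1 for miR-18b-5p and experiment 3 for miR-106a-3p the difference was close to it.

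Different probes of the 3 brighter members gave similar results. The 2 probes of miR-20b-5p had mean log2 differences of 0.75 and 0.82, and the 2 probes of miR-363-3p had 0.95 and 0.96. The 3 probes of miR-18b-5p had 1.01, 0.92 and 0.82, and in experiment 3 they spread from 0.60 to 0.87. Of the 4 probes of miR-106a-3p, 1 exceeded 3 times its error on all 6 arrays, with a mean log2 difference of 0.94. The others did so on 2, 1 and 0 arrays. Its total signal came from this 1 probe on 4 arrays, from 2 probes in substate 2 of experiment 1 and from 3 in substate 2 of experiment 2. In experiments 1 and 2 the totals of miR-106a-3p thus compare different sets of probes, and the probe above the limit throughout had scaled log2 ratios of 1.01, 1.34 and 0.48, where the totals had 1.39, 2.00 and 0.48.

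Differences between substates were tested with limma over the 474 miRNAs that passed the detection filter, with the experiment as a block. A miRNA counted as called with a 2-fold or larger difference and a p adjusted over all of them (Benjamini-Hochberg) under 0.05. None of the 4 tested members was called, and the background was also 0 of 474 miRNAs (0%). At an unadjusted p under 0.05 limma found 109 miRNAs in either direction, and the methods' paired t-test, run on the values scaled, floored and filtered here, found 57 and called 0. For miR-363-3p the log2 difference of 0.95 had a 95% confidence interval of 0.36 to 1.55 (limma, adjusted p = 0.169). For miR-20b-5p the interval was 0.00 to 1.55 (limma, adjusted p = 0.215). The intervals of miR-18b-5p (−0.33 to 2.09; limma, adjusted p = 0.274) and miR-106a-3p (−0.03 to 1.65; limma, adjusted p = 0.220) included 0.

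Counts over the 4 tested members are read against all tested miRNAs. After scaling, though not before it, all 4 were higher in substate 2 in all 3 experiments, as were 100 of 474 miRNAs (21.1%). The groups did not overlap for 3 of the 4, with substate 2 higher, against 56 of 474 (11.8%). At an unadjusted limma p under 0.05 and higher in substate 2 were 2 of the 4, miR-363-3p and miR-20b-5p, against 46 of 474 (9.7%). None of the members was 2-fold higher, against 23 of 474 (4.85%), but this depends on the scaling and the floor. With the 99th percentile of the miRNAs detected on all 6 arrays as the scale, all 4 had differences above 1, from 1.05 to 1.23, where the median of all tested miRNAs was 0.18. Relative to that median they were at 0.86 to 1.04, and the share of all tested miRNAs above 1 on this scale is not given here. The difference of miR-106a-3p was also above 1 with signals under 1 set to 1 (1.31), with the deposited log2 values (1.199) and with the mean processed spot signal (1.01). Their median log2 difference was 0.85 (by experiment 0.49, 1.41 and 0.61, SD 0.50), beside a median of −0.01 over all tested miRNAs. Among the 279 tested miRNAs that lay above the floor on all 6 arrays, miR-363-3p had the 19th highest difference, miR-18b-5p the 23rd and miR-20b-5p the 30th. Members of one transcript are not independent of each other, and no test was made over them.

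**Figure D4:**
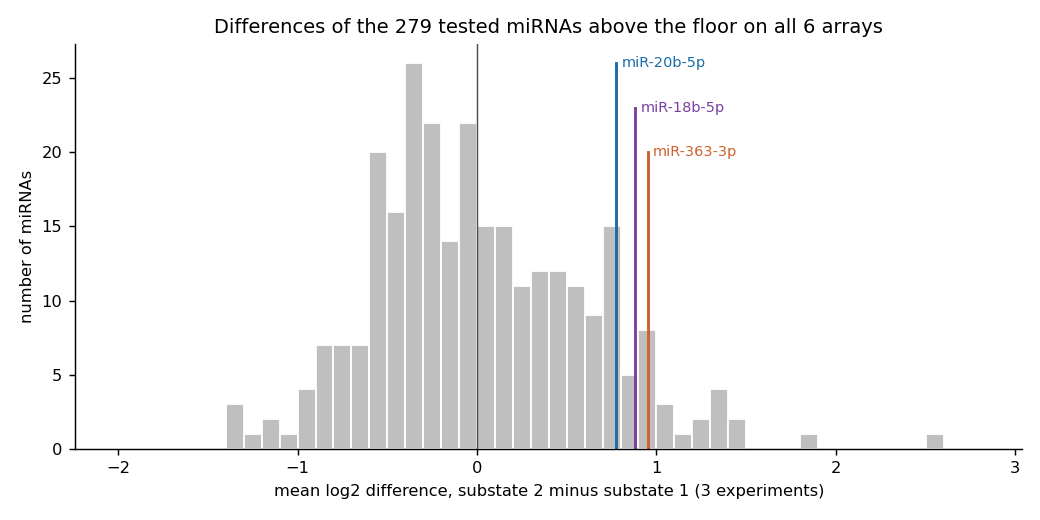
Number of miRNAs by mean log2 difference, substate 2 minus substate 1, in bins of 0.1 for the 279 tested miRNAs above the floor on all 6 arrays. Lines mark miR-20b-5p (0.77), miR-18b-5p (0.88) and miR-363-3p (0.95), which lie in the upper part of the distribution and below a 2-fold difference (log2 of 1, not drawn).

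Both arrays of each experiment lay on the same slide, so means by slide regroup the differences given above and are no separate check of direction. On slide 1, which holds experiment 1 alone, the log2 difference was 0.46 for miR-20b-5p, 0.72 for miR-363-3p and 0.18 for miR-18b-5p. On slide 2 the means over experiments 2 and 3 were 0.93, 1.07 and 1.23. Without experiment 2 the mean differences were 0.49 for miR-20b-5p, 0.74 for miR-363-3p, 0.44 for miR-18b-5p and 0.50 for miR-106a-3p.

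Each member was next set against its paralog, to ask whether the X-linked miRNAs differed between substates by another amount than their relatives on chromosomes 13 and 7. Only differences between substates enter this comparison, and the scale of an array cancels in it wherever no value is at the floor, as in all pairs but that of miR-106a-3p. In 5 pairs both miRNAs passed the filter. The log2 difference of miR-20a-5p was 0.25, 1.29 and 0.27 in the 3 experiments, and that of miR-20b-5p exceeded it by 0.21, 0.06 and 0.25 (mean 0.17 ± 0.10, SD). For miR-18a-5p it was 0.04, 1.31 and 0.30, and miR-18b-5p exceeded it by 0.14, 0.44 and 0.41 (mean 0.33 ± 0.16). In both pairs the X-linked member, whose sequence is nearly that of its counterpart, had the larger mean difference. The software's error of each excess was 0.21 in the first pair and 0.20 in the second, so the excess was above its error in experiment 3 alone in the first pair and in experiments 2 and 3 in the second.

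miR-363-3p differs more in sequence from its relatives. miR-92a-3p, made from both clusters, had log2 differences of 0.05, 0.55 and 0.72, which miR-363-3p exceeded by 0.67, 0.83 and 0.03 (mean 0.51 ± 0.43), and in experiment 3 the excess was under its error of 0.22. miR-25-3p had 0.08, 0.52 and 0.35, and miR-363-3p exceeded it by 0.65, 0.86 and 0.40 (mean 0.64 ± 0.23), above the error in each experiment. In the pair of miR-106a-3p and miR-17-3p the excess was 0.34, 0.12 and 0.52 (mean 0.33 ± 0.20), with 2 values of miR-106a-3p at the floor. The error of this excess, carried from signals without the floor, was 0.45, 0.43 and 0.66. In experiment 3, with no value at the floor, the excess was under its error. In experiments 1 and 2 the floor lowers the excess, so it cannot be set against this error. The member had the larger difference in 3 of 3 experiments in all 5 pairs, but by less than the error in the cases named, and 2 of the pairs share the values of miR-363-3p. With normexp background correction this fell to 2 of 3 experiments for miR-106a-3p over miR-17-3p and for miR-363-3p over miR-92a-3p. Across the alternatives the mean excess of miR-106a-3p over miR-17-3p ranged from 0.02 to 0.82. An exact two-sided sign-flip permutation test over 3 experiments gave p = 0.25 for each pair, which is the smallest p that 3 experiments allow. The pairs of miR-18b-3p and miR-20b-3p could not be compared, as these members were undetected.

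**Figure D5:**
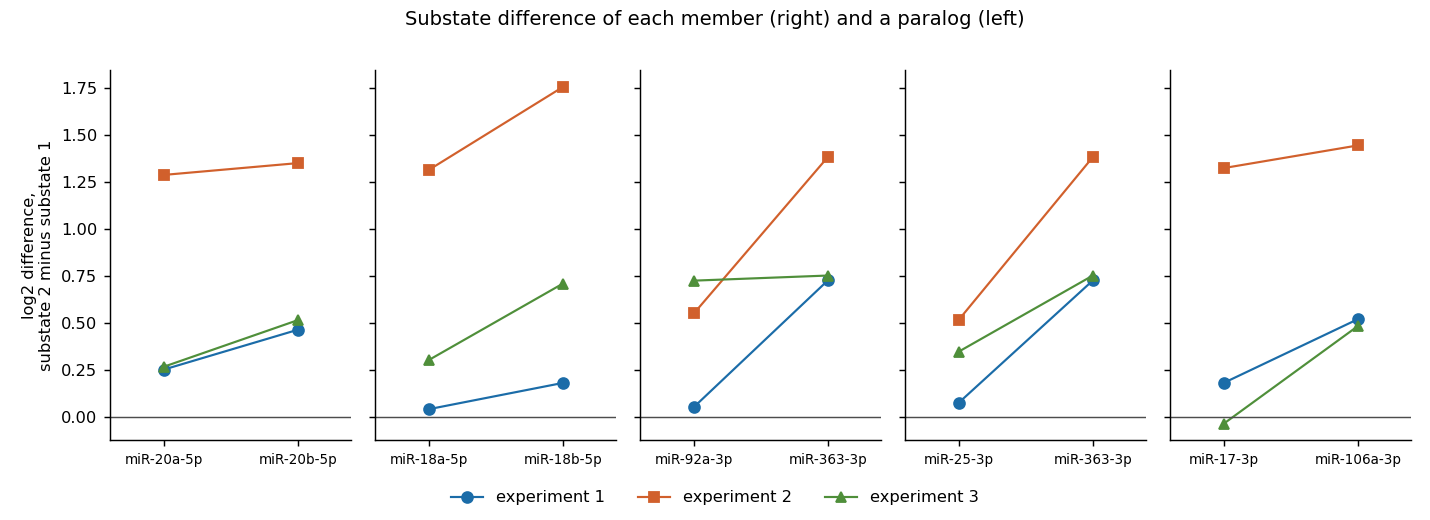
Log2 difference, substate 2 minus substate 1, of a paralog (left) and a cluster member (right) in each of 5 pairs, with a line for each experiment. All lines run upward to the member, several by less than the error within arrays and with miR-363-3p drawn in both of its pairs, by 0.03 (miR-363-3p and miR-92a-3p, experiment 3) to 0.86 (miR-363-3p and miR-25-3p, experiment 2).

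Relatives of the cluster outside the X chromosome are given as lists. Of the 10 mature miRNAs listed for the miR-17/92a-1 cluster, 7 were tested, limma called 0, and all 7 had a positive mean difference, as did 215 of all 474 tested miRNAs, with a median of 0.55 and a range of 0.23 to 0.96. For miR-20a-3p and miR-19b-1-5p, 2 of these 7, 5 and 4 of the 6 values lay at the floor. Of the 6 from the miR-106b/25 cluster 5 were tested, 0 were called, and the median was 0.31, with miR-93-3p at the floor on all 6 arrays. Higher in all 3 experiments were 4 of the 7 and 4 of the 5, beside 21.1% of all tested miRNAs. The shared miR-19b-3p and miR-92a-3p had mean differences of 0.90 ± 0.70 and 0.44 ± 0.35 (SD), and neither was called. The medians of the cluster and of both relatives were highest in experiment 2. By experiment they were 0.49, 1.41 and 0.61 for the miR-106a/miR-363 cluster, 0.18, 1.29 and 0.30 for the miR-17/92a-1 cluster, and 0.19, 0.52 and 0.32 for the miR-106b/25 cluster.

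Sharing a seed with a cluster member did not go with sharing its direction in every case. Of the 7 miRNAs on the array with the seed AAAGUGC of miR-20b-5p, 6 were tested. Of these, 5 were higher in substate 2 in all 3 experiments, beside 21.1% of all tested miRNAs. They were miR-20b-5p itself and its relatives miR-17-5p, miR-20a-5p, miR-106b-5p and miR-93-5p, so the count is not separate from those above. The other tested miRNA with this seed, miR-519d-3p, was singled out after its values were seen and belongs to the chromosome 19 miRNA cluster.
miR-519d-3p: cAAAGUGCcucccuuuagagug
It had log2 differences of −1.58, −1.47 and −1.80, with 2 arrays at the floor (limma, adjusted p = 0.139). Of the 6 miRNAs with the seed AUUGCAC of miR-363-3p 5 were tested, miR-363-3p itself among them. Like 215 of all 474 tested miRNAs, all 5 had a positive mean difference, here between 0.21 and 0.95. The lowest was that of miR-367-3p, a miRNA of the miR-302/miR-367 cluster, with −0.37, 1.02 and 0.00 in the 3 experiments. Of the 3 with the seed AAGGUGC of miR-18b-5p 2 were tested, miR-18b-5p itself and its paralog miR-18a-5p. Both were higher in substate 2 in all 3 experiments, beside 21.1% of all tested miRNAs. The sequence table covered 88.2% of the miRNAs on the array, and those without an entry were not sorted by seed.

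Other miRNA genes lie further along Xq26.3. Mature arms of miR-424, miR-503, miR-542, miR-450a and miR-450b with an entry in the table lie 370 to 376 kb away. Of the 11 listed, 10 were undetected on all arrays, as were 75.3% of all miRNAs analysed. miR-424-5p was detected on 4 arrays and had a mean log2 difference of −0.59 ± 0.63 with 3 values at the floor (limma, adjusted p = 0.305).

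The miRNAs most like the cluster over the 6 arrays were found by the root mean square distance between log2 values centred on their own mean and the mean centred profile of the 4 detected members. Candidates were the 285 miRNAs other than the listed members that were detected on all arrays, with the shared miR-19b-3p and miR-92a-3p among them. The 5 nearest were miR-130a-3p (distance 0.09), miR-16-5p (0.13), miR-183-5p (0.13), miR-17-5p (0.14) and miR-148b-3p (0.14), beside a median distance of 0.64. The cluster's own members lay at 0.08 (miR-20b-5p), 0.09 (miR-363-3p), 0.13 (miR-106a-3p) and 0.16 (miR-18b-5p), distances that are lowered by each member's own part in the profile and so cannot be compared with those of the others. miR-17-5p, the closest relative of miR-106a-5p in sequence, had log2 differences of 0.38, 1.18 and 0.35.

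Markers chosen by name were used to check the labels. Of 9 miRNAs typical of pluripotent cells, miR-302a-3p, miR-302b-3p, miR-302c-3p, miR-302d-3p and miR-367-3p were detected on all 6 arrays, and 1, miR-372-3p, on none. Their summed signal, of which miR-367-3p was the largest part over the 6 arrays together though not by mean log2 signal in substate 1, was 1176% of the 99th percentile in substate 1 and 815% in substate 2 of experiment 1. The second experiment had 855% and 1209%, and the third 1397% and 1002%. Unlike the scaled signal of the cluster, the sum was lower in substate 2 of experiments 1 and 3. Of 3 neural markers miR-9-5p and miR-9-3p were undetected throughout. miR-124-3p was detected on all arrays, at 1.57% and 2.04%, 1.64% and 3.25%, and 2.00% and 2.59% of the 99th percentile, substate 1 first, and its log2 difference of 0.38, 0.99 and 0.37 had the direction of the cluster in each experiment (limma, adjusted p = 0.215). Whether cells that carry this miRNA had a part in the cluster's difference was not tested, and a change in cells cannot be told apart from a change in the miRNA released per cell.

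Of the 6 listed let-7 and differentiated-cell miRNAs 5 were undetected on every array, among them all 4 of let-7, and miR-145-5p was detected on 3 arrays, with a highest signal of 0.361%. Of 5 blood miRNAs 4 were undetected, miR-451a among them, and miR-486-5p was detected on 3 arrays, with a highest signal of 0.946%. Liver-specific miR-122-5p and the 3 muscle miRNAs were undetected on all 6 arrays. Of all miRNAs analysed 75.3% were undetected on every array, so these counts of undetected markers alone say little about cell type.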

How the data were processed

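The authors hybridised exosomal miRNA to 1-colour Agilent miRNA arrays. The deposited intensity values were made by the authors with Feature Extraction (version 12.0.3.2 for experiment 1, 11.5.1.1 for experiments 2 and 3), which subtracted background and summed spots to a total per miRNA, with no normalisation between arrays. The deposited flags of detection, background and saturation come from the same software. The authors also deposited log2 values from GeneSpring GX, in which, by their methods, signals under 1 were set to 1, each array was scaled to its 99th percentile, and exosome signals were brought to the equivalent of 1 ng. These were used as an alternative.

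Here, each array's total signals were scaled to its 99th percentile, raised to 1 floor for all arrays and log2 transformed. Undetected miRNAs are written as 0.1, the total of each of the 2698 detected values equals the sum of its probes above 3 errors to within 0.1%, and for all 15294 values being detected was the same as having a probe with a signal above 3 errors. The 474 miRNAs detected on at least 3 of 6 arrays were fitted with limma 3.58.1 in R 4.3.3, two-sided, with the experiment as a block, after a test on simulated data. The floor replaced 20.0% of the tested values. The pairing rests on the experiment numbers of the labels and the study's paired test; deviations of the paired arrays correlated at 0.674, 0.0307 and 0.517 across miRNAs. Replicates are different passages of a single line. With the block, p-values measure the spread of the substate difference between these 3 experiments. Alternatives covered scaling, floor, background correction, filter, block, test and left-out experiments; normexp used median spot intensity. Named miRNAs were all members, their paralogs, their X-linked neighbours and the 5 nearest profiles, by rule, and the markers; miRNAs named for a shared seed or for a call under an alternative were chosen after their values were seen. Members and lists were chosen with earlier results of these data known. Sequences and positions are from RefSeq (GRCh38.p14).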

Additional observations from a re-analysis of the deposited data

How the results depend on the processing

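The direction of the mean difference was the same for miR-20b-5p, miR-363-3p, miR-18b-5p and miR-106a-3p under each of their 16 alternatives, although single experiments differed in sign without scaling. Many of these alternatives could not have reversed it. Another filter, block or test leaves the mean difference as it was. With all 3 experiments positive, leaving out 1 of them also leaves a positive mean. Only other scaling, floor, background correction or signal values could have changed the direction. The median of the 4 ranged from 0.36 with the labelled amount as the scale to 1.17 with the 99th percentile of the miRNAs detected throughout, under which the median of all tested miRNAs was 0.18. Without replicate 1, 2 or 3 the difference ranged from 0.49 to 0.93 for miR-20b-5p, 0.74 to 1.07 for miR-363-3p, 0.44 to 1.23 for miR-18b-5p and 0.50 to 0.98 for miR-106a-3p. With normexp background correction, which adds an offset of 50 to every spot, all 4 had a limma adjusted p under 0.05 and under 2-fold differences: 0.81 for miR-20b-5p (adjusted p 0.029, over all alternatives 0.029 to 0.723), 0.96 for miR-363-3p (0.0075, 0.0075 to 0.482), 0.87 for miR-18b-5p (0.036, 0.036 to 0.645) and 0.53 for miR-106a-3p (0.0049, 0.0049 to 0.441). This setting moved the median of all tested miRNAs to 0.39 and gave 361 of them an adjusted p under 0.05. Under it the 1920 miRNAs detected on no array also had a median difference of 0.47, and why they moved was not tested. The p of miR-106a-3p, whose difference lay near that median, is therefore not read as a result about it. Relative to the median of all tested miRNAs the members were at 0.42, 0.56, 0.47 and 0.14, and for the 3 brighter ones the cause was not tested. The number of miRNAs called by limma, 0 in the chosen setting (109 at unadjusted p under 0.05), was 7 with a filter for detection on all arrays, which tests fewer miRNAs. It was 4 with normexp (miR-130b-3p, miR-301a-3p and miR-361-5p higher, miR-7107-5p lower) and 1 with no replicate block (miR-519d-3p), the cause of which was not tested, and these names were chosen after their values were seen. None was a cluster member. With no replicate block the limma adjusted p was 0.111 for miR-363-3p and 0.152 for miR-20b-5p. Each member's mean difference exceeded its paralog's in every alternative run. Leaving out 1 experiment could not change this, as the excess was positive in all 3. In pairs with no value at the floor, signals under 1 set to 1 and the deposited log2 values repeat the excess of the chosen setting. For those pairs only normexp and the mean processed spot signal could have changed the direction. The excess was positive in only 2 of 3 experiments for miR-106a-3p over miR-17-3p with normexp and with the mean processed spot signal, and for miR-363-3p over miR-92a-3p with normexp. The mean excess of miR-106a-3p, 0.33 in the chosen setting, was 0.02 with normexp and 0.82 with signals under 1 set to 1 and with the deposited log2 values. Signal over background limits miR-106a-3p and the 3 undetected arms, and the data hold 3 experiments of 1 cell line in which passage goes with substate.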
